A study of Mus musculus with 4 samples.

Results

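The genes described here are 46 genes whose RNA accumulates as cells replicate their DNA and divide, 20 of S phase and 26 of the G2 and M phases, out of 32285 genes measured. They were chosen by symbol, as a standard cell cycle list, with earlier results of these data known. Every one was present in the gene list of the data. They were followed in single cells from subcutaneous MC38 tumors, a mouse colon carcinoma line grown in C57BL/6 mice. The tumor cells were wild type (WT) or carried RAC1 A159V, a substitution in the small GTPase RAC1 that was introduced by genome editing and was carried on as cloned cells, so that effects of the substitution and of the clone cannot be told apart. The mice received anti-PD1, an antibody that blocks the PD1 checkpoint receptor of T cells, or an IgG control, so that the WT and the A159V tumors each gave an IgG library and an anti-PD1 library. RAC1 A159V was in the tumor cells and not in the host cells. CD45+ and CD45- cells were separated and mixed again before loading, so the numbers of each cell type do not give their shares of a tumor. Each group is 1 library, without a replicate. Differences between groups therefore have no test, and all intervals are 95% intervals that cover counting error only. Intervals of cycling shares and their ratios count cells. Those of gene levels, log2 ratios and shares of UMIs count UMIs pooled over cells. They leave out differences between cells and can be too narrow.

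Cells enter S phase after the MCM helicase has been loaded on origins of replication. Nucleotides are then made by enzymes such as ribonucleotide reductase, and the sliding clamp PCNA holds the polymerases on DNA. In G2 and M, cyclin-dependent kinase 1 with cyclins A and B, Aurora and Polo-like kinases, and kinetochore and spindle proteins condense and separate the chromosomes, after which the anaphase-promoting complex ends mitosis. Activated T cells and tumor cells are known to divide often, whereas mature neutrophils do not divide. Promoters of S genes are known for E2F sites, and promoters of G2 and M genes for CCAAT boxes and for cell cycle homology regions (CHR).

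Promoter sequences show what these genes share besides their names. Windows of 250 bases before to 50 bases after each start, from RefSeq on GRCm38.p6, were found for 41 of the 46 genes (18 S and 23 G2/M), and Tpx2, Mcm4, Gins2, Aurkb and Ccna2 had no entry. On both strands, the letters CCAAT, the CHR letters TTTGAA or TTTAAA, and the E2F letters TTTCCCGC, TTTGGCGC, TTTCGCGC or TTTGCCGC were searched. A CCAAT match was found for 78.0% of the 41 genes and for 41.1% of the 27025 genes with a window. It was found for 19 of 23 G2/M genes (82.6%) and for 13 of 18 S genes (72.2%), so it was frequent in both. CHR letters were found for 20 of 23 G2/M genes (87.0%) and for 8 of 18 S genes (44.4%), beside 30.6% of all genes. E2F letters were found for 10 of 18 S genes (55.6%) and for 1 of 23 G2/M genes, Cdk1, beside 2.61% of all genes. CCAAT and CHR letters stood together in 78.3% of the G2/M genes, in 33.3% of the S genes and in 12.2% of all genes. A match is a description of these windows and not a measured binding site. The 150 bases before the start are printed for 4 genes, because they show the E2F match of an S gene and the CCAAT and CHR matches of G2/M genes, with the matches in capitals. Mcm5, a helicase subunit, lies on the plus strand at chr8:75109359-75109508, and Plk1, a mitotic kinase, on the plus strand at chr7:122159285-122159434. Top2a, the topoisomerase that untangles chromosomes, lies on the minus strand at chr11:99024190-99024339, and Mki67, which encodes the Ki-67 protein of dividing cells, on the minus strand at chr7:135716380-135716529.
Mcm5: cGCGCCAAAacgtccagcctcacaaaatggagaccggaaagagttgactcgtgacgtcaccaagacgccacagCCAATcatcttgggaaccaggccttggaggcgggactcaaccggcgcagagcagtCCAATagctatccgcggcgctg
Plk1: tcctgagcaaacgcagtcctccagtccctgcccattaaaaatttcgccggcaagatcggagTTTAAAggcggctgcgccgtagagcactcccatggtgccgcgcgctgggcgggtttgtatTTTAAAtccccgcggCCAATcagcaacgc
Top2a: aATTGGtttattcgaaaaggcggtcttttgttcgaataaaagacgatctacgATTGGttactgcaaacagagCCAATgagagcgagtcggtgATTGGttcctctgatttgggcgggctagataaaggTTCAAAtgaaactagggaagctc
Mki67: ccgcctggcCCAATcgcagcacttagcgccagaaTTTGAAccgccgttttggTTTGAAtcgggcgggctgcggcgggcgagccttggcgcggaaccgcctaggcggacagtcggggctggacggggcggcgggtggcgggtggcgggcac
Mcm5 held the E2F letters GCGCCAAA and 2 CCAAT boxes. Plk1 held TTTAAA in 2 places and 1 CCAAT box, and Mki67 held TTTGAA in 2 places and 1 CCAAT box. In Top2a, 4 CCAAT boxes, read on either strand, preceded a TTCAAA.

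**Figure D1:**
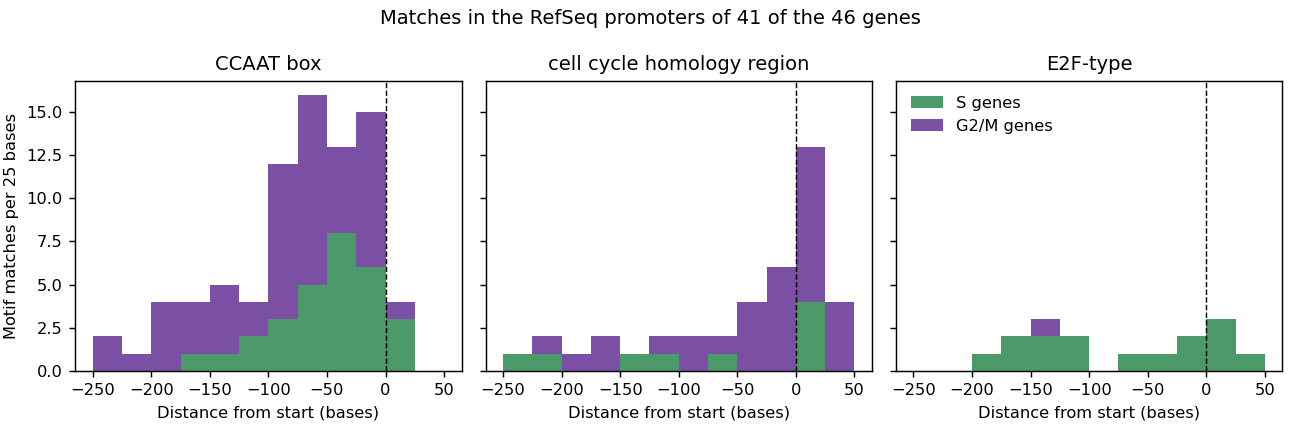
Number of CCAAT, CHR (cell cycle homology region) and E2F letter matches per 25 bases (y axis, S genes and G2/M genes stacked) against the distance from the start of the gene in bases (x axis), over the promoters of 41 genes. E2F matches come from S genes except for 1 in a G2/M gene, and CHR matches are densest in the 25 bases after the start.

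Cells with at least 500 genes were kept, and cell classes were set by marker genes, at least 2 markers of a class per cell. The libraries held 7430 to 9311 barcodes and 54402632 to 125227747 UMIs, with a median of 3225 to 4088 UMIs per barcode. Between 12 and 18 barcodes were shared by any pair of libraries. The WT anti-PD1 library stood apart, with 5 tumor-gated cells and 1741 stromal-gated cells, so it enters no comparison of tumor cells. The tumor gate rested on Rhox5 (1098 CPM, UMI counts scaled to a common total), Prl2c2 (725 CPM) and Prl2c3 (466 CPM), while Krt8, Krt18, Krt19, Krt7 and Epcam, epithelial genes, were at 0.0469 to 0.225 CPM. Clusters were named as tumor by the mean level of the tumor markers. Of the cells in these clusters, the gate took 14.0% in WT IgG, and in the A159V tumors 44.2% under IgG and 54% under anti-PD1.

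A cell was counted as cycling when it held at least 3 UMIs of the 46 genes after each cell had been thinned to 1500 UMIs. This cut is a point on a range and not a cell type. Values given for 4 libraries without names follow the order WT IgG, WT anti-PD1, then A159V IgG, A159V anti-PD1, and for 3 libraries the same order without WT anti-PD1. Tumor-gated cells held the highest shares among the classes compared here. Of 279 WT IgG cells, 75.6% were cycling (70.2 to 80.5%). The A159V tumors had 81.6% of 1246 cells under IgG (79.4 to 83.7%) and 84.0% of 1121 under anti-PD1 (81.8 to 86.1%). The A159V IgG share was 1.08-fold that of WT IgG (1 to 1.16), and within A159V tumors anti-PD1 over IgG was 1.03-fold (0.992 to 1.07). At full depth, with cells too shallow for the thinning included, the shares were 100, 99.8 and 99.6%. The cells deep enough held a median of 32538 to 45332 UMIs. Exactly 2 UMIs were held by 10.4, 7.46 and 5.89% of the cells and exactly 3 by 11.1, 6.74 and 6.51%, and 3, 3 and 6 cells were too shallow for the thinning. By clusters instead of the gate, the shares were 61.9% of 1990 cells, 83.2% of 2816 and 84.9% of 2071, and the A159V IgG share was 1.34-fold the WT IgG share (1.29 to 1.40). A cluster led by Tafa1 and Edil3 held 1127 of the WT IgG cells, 48.8% of them cycling, and 155 and 128 cells of the A159V libraries. Without that cluster the ratio was 1.06.

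Among CD8 T cells the WT anti-PD1 share was the lowest, and the intervals of the other 3 libraries overlapped. In WT tumors, 37.4% of 294 cells were cycling under IgG (31.9 to 43.2%) and 14.3% of 349 under anti-PD1 (10.8 to 18.4%). In A159V tumors, 42.8% of 152 were cycling under IgG (34.8 to 51%) and 31.8% of 277 under anti-PD1 (26.3 to 37.6%). The anti-PD1 share was 0.383 of the IgG share in WT tumors (0.285 to 0.515) and 0.743 of it in A159V tumors (0.577 to 0.956). Between the IgG libraries, A159V over WT was 1.14-fold with an interval that included 1 (0.903 to 1.45). These comparisons share their IgG libraries. Without cells that held tumor markers the A159V ratio was 0.814, with an interval that included 1 (0.616 to 1.08). At full depth, with cells too shallow for the thinning included, the shares were 57.3, 36.7, 49.4 and 48.2%. This order put WT IgG above A159V IgG. The cells deep enough held medians of 4304.5, 3778, 2864 and 3307 UMIs. Cells at exactly 2 UMIs made up 8.84, 14.6, 8.55 and 11.2% and at exactly 3 made up 6.80, 6.30, 9.21 and 5.78%, and 13, 24, 28 and 32 cells were too shallow. A tumor marker UMI was held at full depth by 7.27, 2, 18.5 and 12.5% of the cycling and by 4.89, 1, 5.75 and 13.2% of the other CD8 T cells.

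**Figure D2:**
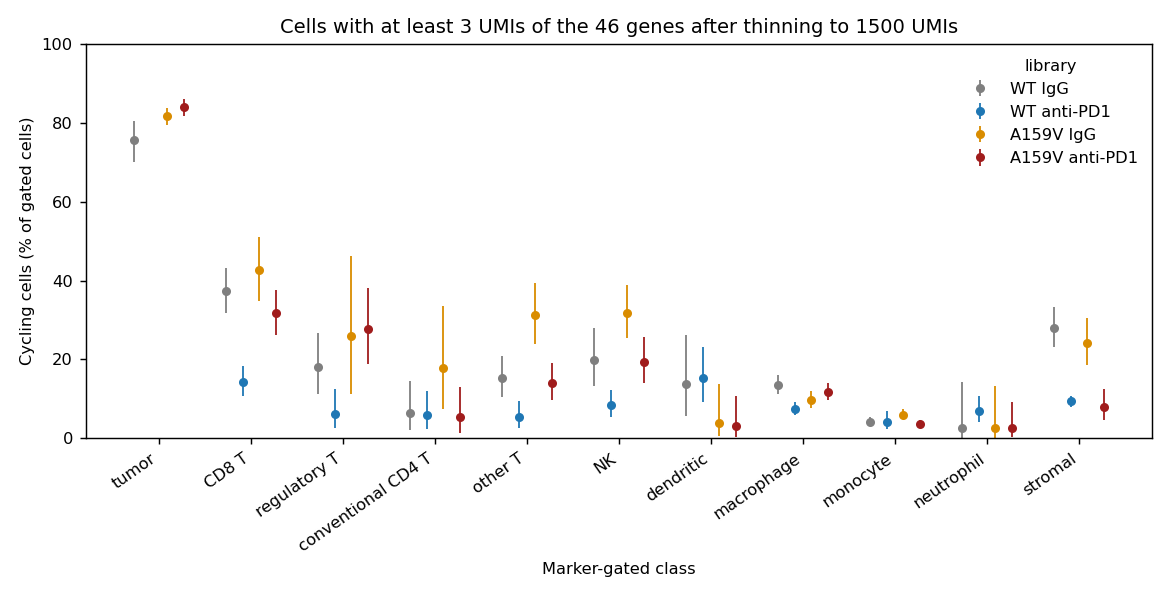
Cycling share in percent (y axis) by cell class (x axis), 1 point per library with its 95% Clopper-Pearson interval for counting error. Tumor-gated cells lie at 75.6 to 84.0%, and CD8 T cells lie at 14.3% in WT anti-PD1 and at 31.8 to 42.8% in the other libraries. The WT anti-PD1 tumor value is not drawn, since it rests on 5 cells.

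Natural killer (NK) and regulatory T cells were also lowest in WT anti-PD1. Of NK cells, 19.8% of 126 were cycling in WT tumors under IgG (13.3 to 27.9%) and 8.33% of 288 under anti-PD1 (5.41 to 12.1%). In A159V tumors the shares were 31.8% of 201 under IgG (25.5 to 38.8%) and 19.4% of 186 under anti-PD1 (13.9 to 25.8%). The anti-PD1 share was 0.42 of the IgG share in WT tumors (0.25 to 0.706) and 0.608 of it in A159V tumors (0.426 to 0.868). Between the IgG libraries, A159V over WT was 1.60-fold (1.07 to 2.41). Of regulatory T cells, 18.1% of 105 were cycling in WT IgG and 6.25% of 112 in WT anti-PD1, a ratio of 0.345 (0.151 to 0.788; 0.213 without cells that held a tumor marker UMI), and 27.8% of 90 in A159V anti-PD1. With cells thinned to 3000 UMIs the NK ratio in A159V was 1.02, in the other direction. The 27 regulatory T cells of A159V IgG were too few for a comparison.

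Macrophages held lower shares than CD8 T cells in each library. In WT tumors, 13.4% of 834 cells were cycling under IgG (11.2 to 15.9%) and 7.49% of 974 under anti-PD1 (5.92 to 9.33%). In A159V tumors, 9.65% of 715 were cycling under IgG (7.59 to 12.1%) and 11.8% of 929 under anti-PD1 (9.83 to 14.1%). The anti-PD1 share was 0.558 of the IgG share in WT tumors (0.422 to 0.738). In A159V tumors it was 1.23-fold, with an interval that included 1 (0.923 to 1.63), and between the IgG libraries A159V over WT was 0.719-fold (0.542 to 0.954). Unthinned shares, with cells too shallow for the thinning included, were 38.4, 38.5, 19.8 and 31.5% and did not separate the WT libraries. The cells deep enough held medians of 3840, 4942, 2587 and 3494 UMIs. Cells at exactly 2 UMIs made up 13.4, 12.7, 14.4 and 12.7% and at exactly 3 made up 6.24, 4.41, 4.2 and 4.63%, and 112, 183, 240 and 163 cells were too shallow. Neutrophils, which should not divide, gave 2.70, 6.99, 2.50 and 2.63% of 37, 272, 40 and 76 cells, at medians of 2051, 1871.5, 1973.5 and 1814 UMIs. In WT anti-PD1 the macrophage (7.49%), NK (8.33%) and regulatory T cell (6.25%) shares lay within the neutrophil interval (4.26 to 10.7%), and with all 46 genes summed they cannot be told from the neutrophil level.

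Pcna made up much of what was counted in the myeloid cells. It gave 16.8, 46.2, 17.5 and 20.1% of the thinned UMIs of the 46 genes in macrophages, 25.9, 67.0, 21.7 and 23.4% in neutrophils, and 7.25, 16.4, 3.81 and 6.01% in CD8 T cells. In neutrophils a Pcna UMI was held by 21.6, 36.4, 15 and 18.4% of cells, and its level was 120, 305, 79.9 and 99.1 CPM. Leaving Pcna out, an alternative chosen after seeing the data, gave cycling shares of 2.70, 1.10, 2.50 and 2.63% in neutrophils, of 9.95, 3.18, 7.83 and 9.58% in macrophages and of 34.7, 9.74, 41.4 and 30.7% in CD8 T cells. Without Pcna, the neutrophil shares of WT IgG, A159V IgG and A159V anti-PD1 rested on 1, 1 and 2 cycling cells. Their intervals were 0.0684 to 14.2%, 0.0633 to 13.2% and 0.320 to 9.18%. The WT anti-PD1 neutrophils moved from the highest to the lowest share, with an overlapping interval of 0.228 to 3.19%. In WT anti-PD1 and without Pcna, the NK share was 6.60% (4.02 to 10.1%), above the neutrophil interval of that library. The intervals of the macrophage share (2.17 to 4.49%) and of the regulatory T cell share (4.46%, 1.47 to 10.1%) overlapped it. The G2/M genes summed to 511 CPM in NK cells, 784 in regulatory T cells, 197 in macrophages and 153 in neutrophils of WT anti-PD1.

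**Figure D3:**
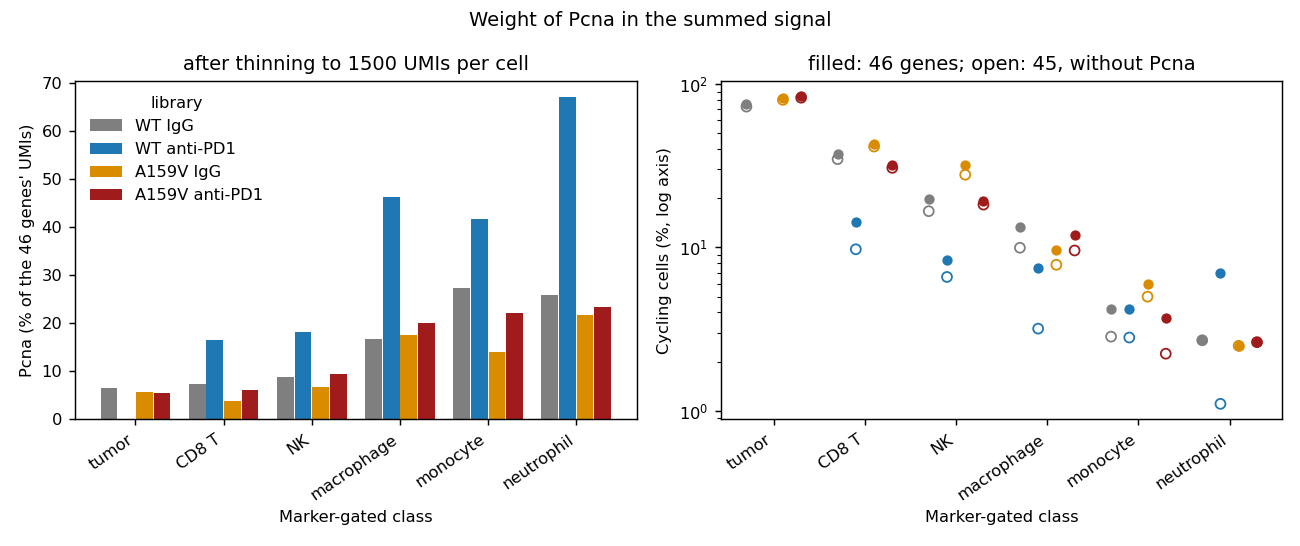
Left, share of the UMIs of the 46 genes that were Pcna, in percent, as bars by cell class and library after thinning to 1500 UMIs; right, cycling share in percent on a log axis with all 46 genes (filled points) and with the 45 without Pcna (open points). In WT anti-PD1 the Pcna share was 46.2% in macrophages and 67.0% in neutrophils, against 16.8 and 25.9% in WT IgG.

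Summed levels of the S genes and of the G2/M genes used all UMIs, and in CD8 T cells WT anti-PD1 was lowest by sums as by cycling share. The order of the other libraries was not the same, since A159V anti-PD1 lay below WT IgG by share and above it by both sums. The S genes summed to 1457, 818, 1761 and 1663 CPM and the G2/M genes to 1815, 657, 2909 and 2041 CPM. The G2/M genes took 53.7% of the thinned UMIs of the list in WT tumors under IgG (50.6 to 56.7%) and 39.5% under anti-PD1 (35.5 to 43.6%). In A159V tumors they took 61.1% under IgG (57.6 to 64.5%) and 53.1% under anti-PD1 (49.9 to 56.2%). These intervals count UMIs and not cells. Of the cycling CD8 T cells, 13.6, 38.0, 12.3 and 17% held S UMIs only. In tumor-gated cells the S sums were 1589, 1836 and 1919 CPM and the G2/M sums 2774, 2887 and 3033 CPM in WT IgG, A159V IgG and A159V anti-PD1, with G2/M at 60.3, 59.2 and 59.6% of the thinned UMIs. In macrophages the S sums were 575, 496, 519 and 540 CPM and the G2/M sums 550, 197, 428 and 563 CPM.

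In NK and regulatory T cells single G2/M genes were lower under anti-PD1 in WT tumors as well, with intervals that overlapped for some genes. Birc5 was at 76.9, 14.2, 71.5 and 22.5 CPM in NK cells and Ube2c at 64.1, 20.5, 75.7 and 13 CPM, so that the anti-PD1 libraries were below the IgG libraries in both genotypes. Top2a was at 155, 93.6, 188 and 135 CPM in NK cells, and Pcna was level, at 143, 143, 155 and 164 CPM. In regulatory T cells Top2a was at 280, 91.7, 300 and 248 CPM and Mki67 at 155, 89.4, 290 and 196 CPM, with the 27 cells of A159V IgG behind the third value. The helicase genes Mcm2 and Mcm5 were at 43.5 and 53.1 CPM in regulatory T cells of WT IgG and at 9.17 and 11.5 CPM in those of WT anti-PD1. These values rested on few UMIs, since all 20 S genes together held 488 UMIs in the 105 cells of WT IgG. In the 112 cells of WT anti-PD1 they held 238 UMIs. In neutrophils 15, 13, 22 and 17 of the 46 genes had no UMI.

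**Figure D4:**
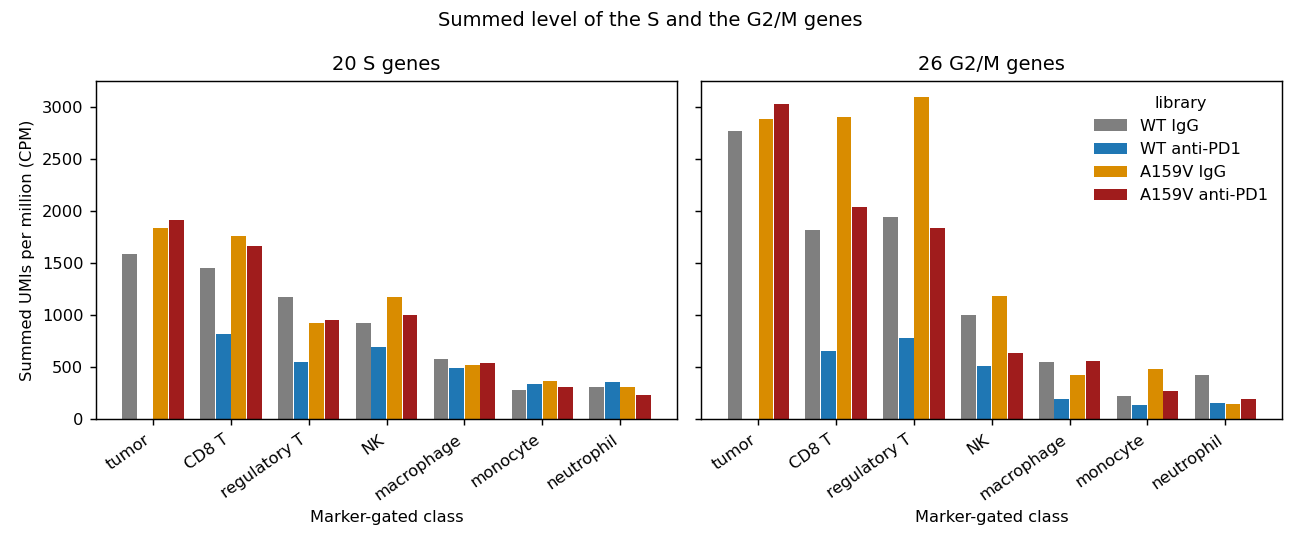
Bars give the summed level of the 20 S genes (left) and of the 26 G2/M genes (right) in UMIs per library total, scaled as CPM, by cell class and library. CD8 T cells had the lowest G2/M sum in WT anti-PD1, 657 CPM, and the highest in A159V IgG, 2909 CPM.

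The tumor-gated cells of WT IgG and A159V IgG were compared first. All 46 passed a mean of 10 CPM, and 1 was over 1.5-fold higher and 0 over 1.5-fold lower, where 3.99 and 6.59% of all genes tested were. Their median log2 ratio was 0.13, beside 0.01 for all genes. The gate held 14.0% of the WT IgG tumor-cluster cells. By clusters, 6 of the 46 were over 1.5-fold higher and 0 lower (5.21 and 10.5% of all genes) and the median was 0.30. By clusters without the one led by Tafa1 and Edil3, 0 were past 1.5-fold, where 3.78% of all genes were higher and 4.50% lower. The median was then 0.06, beside 0.04 for all genes. The gene past 1.5-fold was Rrm2, the small subunit of ribonucleotide reductase, at 157 CPM in WT IgG and at 240 and 254 CPM in the A159V libraries, with a log2 ratio of 0.61 (0.54 to 0.69) for A159V IgG over WT IgG. Bub1 of the spindle checkpoint was at 48.1, 71.3 and 72.1 CPM (log2 0.56), Nuf2 of the kinetochore at 13.3, 19.8 and 20.1 CPM (0.54), Hmmr of the spindle at 56.0, 81.4 and 85.8 CPM (0.53) and Cenpa, the centromeric histone, at 98.3, 141 and 132 CPM (0.51). The lowest ratios were those of thymidine kinase Tk1 (55.3, 40 and 42.5 CPM, log2 -0.46), Cdk1 (246, 202 and 194 CPM, -0.28), thymidylate synthase Tyms (-0.24), Aurkb (-0.20) and Nusap1 (-0.13). The ratios of Mki67 (0.20), Top2a (-0.08), Mcm2 (0.40), Mcm5 (0.05), Pcna (0.05), Ccna2 (0.16), Ccnb1 (0.15), Cdc20 (-0.10), Plk1 (0.12), Birc5 (0.04) and Ube2c (-0.06) lay inside 1.5-fold. By role, ratios were above 0 for 9 of 9 helicase and loading genes, 9 of 11 fork and nucleotide genes and 5 of 8 cyclins and mitotic kinases. They were above 0 for 7 of 7 kinetochore and centromere genes, 5 of 8 spindle and chromosome genes and 1 of 3 genes of the anaphase-promoting complex and its partners. The share of all genes above 0 was not counted, and these counts by role used the gate only. The medians were small, 0.19 for helicase and loading genes and 0.30 for kinetochore and centromere genes, beside 0.01 for all genes.

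Anti-PD1 in A159V tumors was compared in the same way, with the A159V IgG library shared. Of the 46 members, 0 were over 1.5-fold higher and 0 lower (0.811 and 0.429% of all genes were), and their median log2 ratio was 0.07, beside 0.08 for all genes. Mki67 was at 78.6 CPM under IgG and 96.5 under anti-PD1 (log2 0.29), Cenpe at 109 and 130 CPM (0.26), Top2a at 341 and 407 CPM (0.25), Kif11 at 0.25 and Mcm5 at 0.24. The lowest were Gins2 (-0.10), Birc5 (-0.09), Cenpa (-0.09), Cdc6 (-0.08) and Cdk1 (-0.06).

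Other cell cycle genes were taken from lists chosen with earlier results known. Of 9 G1 cyclins and kinases tested in tumor-gated cells, 2 were over 1.5-fold higher and 2 lower in A159V IgG over WT IgG. Of 5 inhibitors these counts were 0 and 1, and of 10 E2F, RB and DREAM genes 0 and 1. Of all genes tested, 3.99% were higher and 6.59% lower. These lists were compared with the gate only, which took 14.0% of the tumor-cluster cells of WT IgG and 44.2% of those of A159V IgG. Ccnd1, a G1 cyclin, was at 333 CPM in WT IgG and 178 in A159V IgG (log2 -0.90). The G1 cyclin Ccnd2 went the other way, at 141 and 228 CPM (0.68), as did Ccne1, at 8.28 and 15.4 CPM (0.82). Cdk6 was at 170 and 101 CPM (-0.74) and E2f3 at 78.1 and 36.2 CPM (-1.09). The inhibitor Cdkn2a was at 17.2 and 8.54 CPM (-0.93), whereas the inhibitor Cdkn1a was at 76.6 and 114 CPM (0.57). Of the 5 inhibitors tested, 3 had ratios above 0 and 2 below. Of 18 other replication genes and 29 other mitosis genes tested, 0 were over 1.5-fold higher or lower, with medians of 0.12 and 0.08.

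Members correlated within tumor-gated cells, as a description over cells thinned to 10000 UMIs, which share library and depth. Over 268 cells of WT IgG, 1209 of A159V IgG and 1092 of A159V anti-PD1, the mean Pearson correlation was 0.135, 0.132 and 0.141 among S genes, 0.280, 0.256 and 0.255 among G2/M genes, and 0.0708, 0.0609 and 0.0534 between an S and a G2/M gene. The highest pair in WT IgG was Birc5 and Ube2c, at 0.62. Pcna correlated with the other S genes at 0.163, 0.152 and 0.160 and with the G2/M genes at 0.0441, 0.0355 and 0.0395.

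In CD8 T cells the IgG libraries differed most in G2/M genes. For A159V IgG over WT IgG, 17 of 46 members were over 1.5-fold higher and 0 lower, beside 11.1 and 8.46% of all genes. Their median log2 ratio was 0.47 beside 0.02. A stricter gate gave 27 of 45 higher and 0 lower, beside 14.9 and 11.4% of all genes, and a median of 0.77. With the main gate, 15 of the 26 G2/M genes were over 1.5-fold higher, with a median of 0.72. Of the 20 S genes 2 were, with a median of 0.24. Top2a was at 265, 105, 494 and 368 CPM in the order of the libraries above, and Mki67 at 129, 58.2, 251 and 177 CPM. Their ratios for A159V IgG over WT IgG were 0.90 (0.67 to 1.12) and 0.95 (0.64 to 1.27). Birc5, a chromosomal passenger, was at 112, 23.0, 186 and 111 CPM, Ube2c, the ubiquitin-conjugating enzyme of the anaphase-promoting complex, at 181, 46, 242 and 151 CPM, and Cdk1 at 82.6, 24.3, 131 and 74.6 CPM. The highest ratios rested on few UMIs, Nuf2 at 1.60 (0.66 to 2.54, from 17 and 15 UMIs), Plk1 at 1.34, Cdca3 at 1.22, Cenpf at 1.08 and Bub1 at 1.07. The lowest were Mcm7 (-0.32), Ccnb2 (-0.25), Cdc6 (-0.16), Hells (-0.16) and Mcm4 (-0.12), with intervals that included 0. Pcna was level across the libraries, at 196, 211, 208 and 196 CPM. By role, 7 of 8 spindle and chromosome genes, 4 of 7 kinetochore and centromere genes and 3 of 8 cyclin and mitotic kinase genes were over 1.5-fold higher.

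Cdkn1a, a cyclin-dependent kinase inhibitor, was at 34.8 CPM in WT IgG and 97.8 in A159V IgG CD8 T cells (log2 1.46), and the mitotic transcription factor Foxm1 at 11.6 and 29.5 CPM (1.27). Of 28 other mitosis genes tested 16 were over 1.5-fold higher and 0 lower, and of 18 other replication genes 0 were higher and 2 lower. Of all genes tested, 11.1% were higher and 8.46% lower.

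Between the WT libraries most members were lower in CD8 T cells after anti-PD1. Of 44 members tested (Nuf2 and Aurka were below the minimum), 39 were over 1.5-fold lower and 0 higher, beside 17.1 and 26.7% of all genes, with a median log2 ratio of -1.20 beside 0.20. The S genes had 16 of 20 lower and a median of -0.88, and the G2/M genes 23 of 24 and -1.43. Gins2 of the replicative helicase was at 23.9 CPM (37 UMIs) in WT IgG and 2.03 (3 UMIs) in WT anti-PD1, and Tk1 at 34.2 and 3.38 CPM. Ratios were -2.27 for Tpx2, -2.23 for Birc5, -2.18 for Cdca8, -1.95 for Ube2c, -1.75 for Cdc20, -1.72 for Cdk1, -1.33 for Top2a and -1.14 for Mki67. The highest were Pcna (0.11, -0.12 to 0.34), Rrm1 (-0.19), Kif23 (-0.36), Mcm6 (-0.44) and Mcm3 (-0.54). Of the other lists, 12 of 17 replication and 15 of 22 mitosis genes were over 1.5-fold lower, E2f1 was at 30.3 and 8.79 CPM (-1.68) and the inhibitor Cdkn1b at 96.2 and 186 CPM (0.94).

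In A159V tumors, CD8 T cells had 13 of 46 members over 1.5-fold lower after anti-PD1 and 0 higher, beside 9.36 and 12.5% of all genes, and a median of -0.39 beside 0.04. Of these 13, 12 were G2/M genes (median -0.58) and 1 was an S gene (median of the S genes -0.04, and 0.01 without cells that held a tumor marker UMI). Hmmr was at 79.3 CPM under IgG and 34.3 under anti-PD1 (-1.19, -1.79 to -0.58), Cenpf at 118 and 63.4 CPM (-0.89) and Cdk1 at 131 and 74.6 CPM (-0.80). Cdca3 (-0.82), Bub1 (-0.75), Birc5 (-0.75) and Ube2c (-0.68) were also lower, and Mcm7 (0.53), Tk1 (0.42), Mcm4 (0.42), Aurka (0.38) and Rrm1 (0.30) had the highest ratios.

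**Figure D5:**
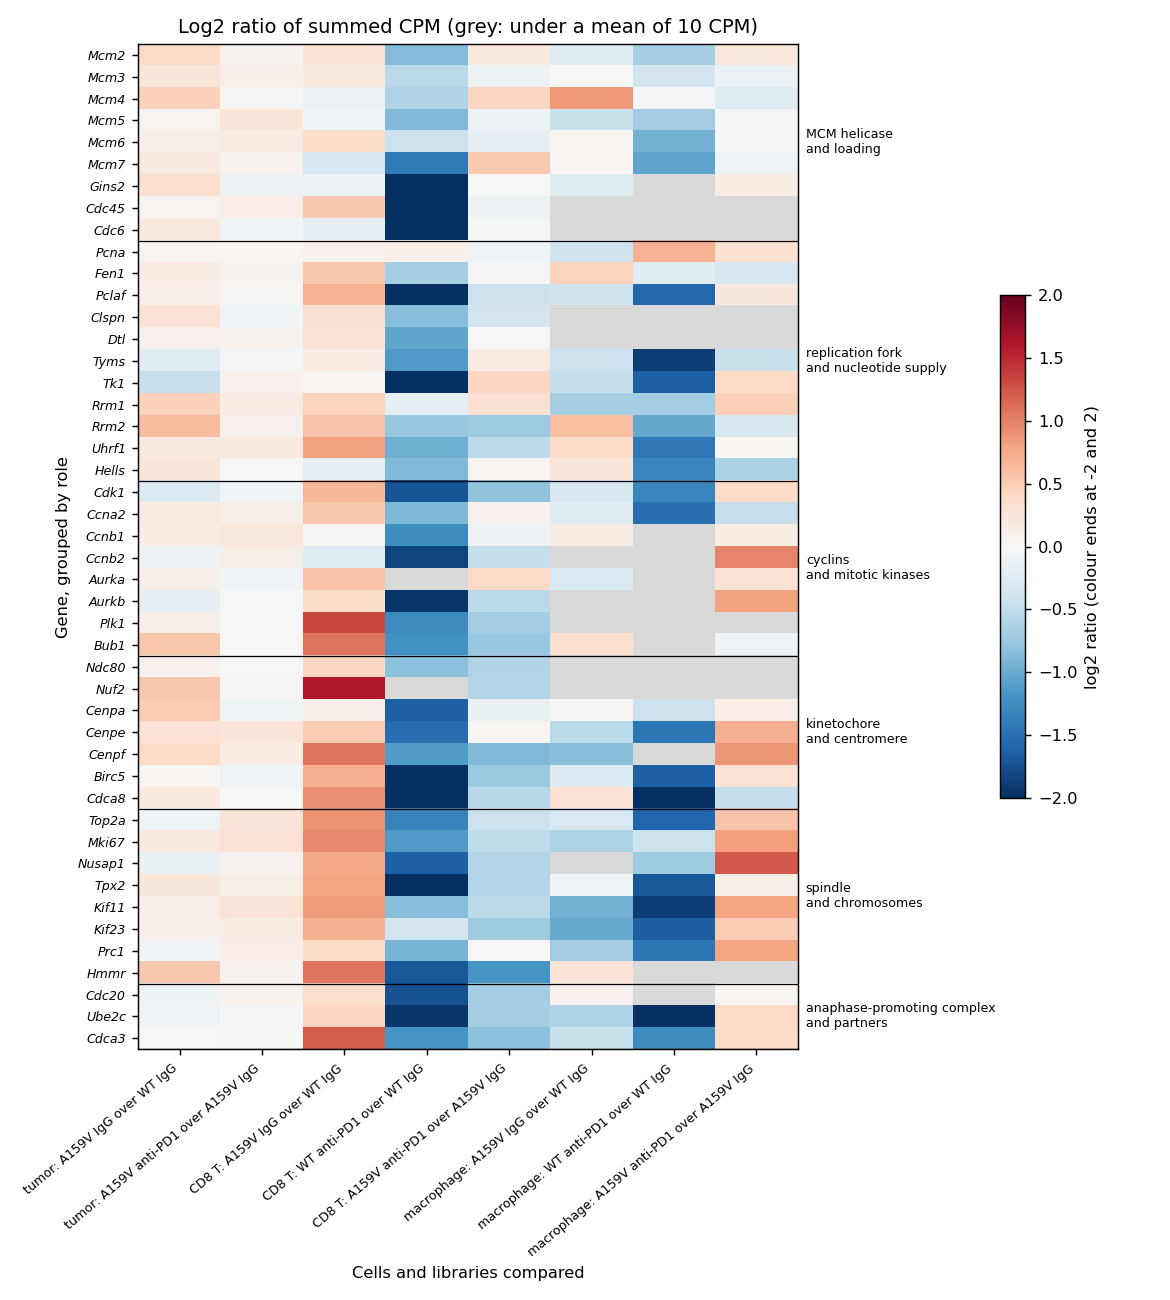
Log2 ratio of summed CPM (colour, ending at -2 and 2) for each of the 46 genes, grouped by role in rows, with comparisons in columns and grey where a gene did not reach a mean of 10 CPM. The columns of WT anti-PD1 over WT IgG are mostly blue, with medians of -1.20 in CD8 T cells and -1.30 in macrophages, and the tumor columns are pale, with medians of 0.13 and 0.07.

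In macrophages, 36 members were tested for A159V IgG over WT IgG, of which 2 were over 1.5-fold higher and 7 lower, beside 5.92 and 4.96% of all genes, with a median of -0.26. The median was -0.68 with a stricter gate, -0.58 by clusters and -0.61 without cells that held a tumor marker UMI. Mcm4 was at 13.2 and 25 CPM (0.87), Rrm2 at 22.8 and 35.2 CPM (0.61), Kif23 at 21.5 and 10.2 CPM (-1.01) and Kif11 at 17.2 and 8.33 CPM (-0.96). For WT anti-PD1 over WT IgG, 24 of 30 tested were over 1.5-fold lower and 1 higher, beside 17.3 and 13.7% of all genes, with a median of -1.30. The one higher was Pcna, at 184 and 299 CPM (0.70, 0.58 to 0.83), and the lowest were Ube2c, at 58.3 and 8.71 CPM (-2.61), Cdca8 (-2.31), Tyms (-1.89), Kif11 (-1.89) and Tpx2 (-1.70). The cluster of macrophages led by Retnla and Mrc1 held 1952 cells, 1552 of them from WT anti-PD1, and its part in these values was not tested. The G1 cyclins Ccnd2 (122 and 17.1 CPM) and Ccnd1 (278 and 70.3 CPM) were lower too. For A159V anti-PD1 over A159V IgG, 8 of 38 were over 1.5-fold higher and 1 lower, beside 4.77 and 5.46% of all genes, with a median of 0.22. The 8 were all G2/M genes, among them Nusap1 (6.48 and 16.5 CPM, 1.22), Ccnb2 (0.97), Cenpf (0.88), Mki67 (20.8 and 37.7 CPM, 0.83) and Aurkb (0.80), and the lower gene was Hells (-0.64). Of the 7 spindle and chromosome genes tested 4 were among them. A tumor marker UMI was held by 19.6% of the cycling and 15.5% of the other macrophages in WT IgG. In WT anti-PD1 these shares were 1.37 and 1.89%. For WT anti-PD1 over WT IgG without such cells, 22 of 30 members were over 1.5-fold lower and 1 higher. This stood beside 17.5 and 14.0% of all genes, with a median of -1.31. In the A159V libraries a tumor marker UMI was held by 29.0 and 29.1% of the cycling and by 18 and 19% of the other macrophages. Without the cells that held one, 18 of 34 members were over 1.5-fold higher and 0 lower for A159V anti-PD1 over A159V IgG. Of all genes, 5.65% were higher and 5.01% lower. The median of the members was 0.63, and with a stricter gate it was 0.59.

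Within CD8 T cells, cells with a UMI of Havcr2, a receptor of exhausted T cells, were cycling in 48.4% of cases in WT IgG (38.0 to 58.9%) and cells without in 32.2% (25.7 to 39.1%). The same pairs were 15.1 and 13.2% in WT anti-PD1, then 41.5 and 43.2% under IgG and 46.3 and 24.2% under anti-PD1 in A159V tumors. Cells with a Havcr2 UMI were deeper in each library, at medians of 5898, 4085, 3496 and 4719 UMIs against 3896, 3232.5, 2713 and 2845.5, and the part of depth was not tested. Among tumor-gated cells, 55, 99 and 117 held a collagen VI or Edil3 UMI in WT IgG, A159V IgG and A159V anti-PD1. Of these, 65.5% (51.4 to 77.8%), 77.8% (68.3 to 85.5%) and 77.8% (69.2 to 84.9%) were cycling. Of those without, 78.1% (72.1 to 83.4%), 82.0% (79.6 to 84.1%) and 84.8% (82.4 to 86.9%) were. The intervals overlapped in each library. Outside the classes above, monocytes were cycling in 4.2, 4.21, 5.98 and 3.69%, and stromal-gated cells in 28.0, 9.36, 24.2 and 7.96%. The stromal gate took 8.19% of the 1990 tumor-cluster cells of WT IgG. A tumor marker UMI was held by 74.7, 14.1, 54 and 50% of the cycling and by 53.1, 4.31, 24.2 and 21.6% of the other stromal-gated cells, and the cycling ones of WT IgG held a median of 2 stromal markers against 4 in the others. By clusters the stromal shares were 15.4, 9.37, 20.1 and 4.81%. Cells that passed no gate, which include most of the tumor-cluster cells of WT IgG, were cycling in 50.5, 13.3, 70.4 and 53.9%.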

How the data were processed

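The authors deposited counts of UMIs per gene and cell as filtered matrices, 1 per library, made with Cell Ranger against the mm10 reference with introns counted; the file headers name version 7.2.0 and the submitters' processing notes 5.0.1. Background RNA had not been subtracted from the deposited counts. Members and gene lists were chosen with earlier results of these data known.

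Barcodes with at least 500 genes were kept, and likely doublets were removed at 0.8% per 1000 cells. Cells were gated by at least 2 markers of a class, and clustered (Leiden) for comparison. Cells were thinned once to 1500 UMIs for cycling shares. Gene levels are UMIs summed per class and library, in CPM, with a pseudocount of 1 CPM in log2 ratios and a mean of at least 10 CPM for a gene to be tested; over 1.5-fold counts as higher or lower. Shares have Clopper-Pearson intervals, their ratios Katz intervals, levels exact Poisson intervals and log2 ratios delta-method intervals. Named genes were, per comparison in tumor, CD8 T and macrophage cells, the 5 highest and 5 lowest members that passed the minimum, a fixed set of 14 members, and the 2 highest and 2 lowest of each other list with 6 fixed regulators, of which the text gives the most different. The scripts were tested on simulated data. Python 3.11.15, numpy 2.4.6, scipy 1.17.1 and leidenalg 0.10.2 were used. Groups were taken from the sample titles, with 1 library each, and precision is limited by the UMIs of each class (54402632 to 125227747 UMIs per library). Alternatives changed the thinning, the UMI minimum, the gate, clusters, scaling, pseudocount and level minimum.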

Additional observations from a re-analysis of the deposited data

Results flagged for a closer look

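Anti-PD1 went with opposite directions in the macrophages of the genotypes. The cycling share of anti-PD1 over IgG was 0.558-fold in WT and 1.23-fold in A159V, where the interval included 1, and the median log2 ratio of the members was -1.30 in WT and 0.22 in A159V. With 1 library per group, the difference between the genotypes was not tested.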

How the results depend on the processing

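No paired analysis was possible because each group is 1 library and the labels carry no replicate numbers. With member UMIs not thinned, the cycling ratio was 0.999 in tumor cells for A159V IgG over WT IgG, and for WT anti-PD1 over WT IgG it was 0.656 in CD8 T, 0.820 in regulatory T, 0.724 in NK and 1.07 in macrophage cells. Thinning to 1000 and 3000 UMIs gave 0.259 and 0.530 in CD8 T cells of WT, and 3000 UMIs gave 1.02 in NK cells of A159V. A minimum of 2 or 5 UMIs gave 0.626 and 0.233 in CD8 T cells of WT and 0.753 and 0.398 in macrophages of WT, and 5 UMIs gave 1.71 in macrophages of A159V. Without Pcna, chosen after seeing the data, the WT ratios were 0.281 in CD8 T and 0.320 in macrophage cells. By clusters the tumor ratio was 1.34.

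The number of members past 1.5-fold in tumor cells (1) was 2 with median of ratios scaling, 0 with a pseudocount of 10 CPM, 4 with a stricter gate, 6 by clusters, 4 with cells weighted equally and 0 without the Tafa1 and Edil3 cluster. In CD8 T cells the stricter gate gave 27 of 45 for A159V IgG over WT IgG (17 in the main analysis), all higher. For anti-PD1 in A159V it gave 21 of 46 (13), 3 higher and 18 lower. Beside these, 14.9 and 15.7% of all genes were higher and 11.4 and 12.3% lower. For anti-PD1, a mean of at least 50 CPM gave 14 of 18 tested in WT (39 of 44) and 7 of 31 in A159V. All of these were lower, where 15.9 and 4.02% of all genes were. In macrophages, A159V IgG over WT IgG (9 of 36) gave 2 of 36 with a pseudocount of 10 CPM and 0 of 2 at 50 CPM. The stricter gate gave 18 of 34, of which 17 were lower, and clusters gave 16 of 30, of which 15 were lower. Without cells holding a tumor marker UMI there were 16 of 32, all lower. Over these settings 2.72 to 5.06% of all genes were higher and 2.61 to 6.03% lower. Anti-PD1 in WT macrophages (25 of 30) gave 1 at 50 CPM, Pcna, which was higher and the only member tested. With no minimum there were 41 of 46, 40 lower and 1 higher, beside 17.2 and 15.3% of all genes. Anti-PD1 in A159V macrophages (9 of 38) gave 2 of 38 with a pseudocount of 10 CPM and 0 of 2 at 50 CPM. The stricter gate gave 18 of 36 and equal weighting of cells 3 of 25. Without cells holding a tumor marker UMI there were 18 of 34. All of those past in these settings were higher. Over the settings 2.70 to 5.79% of all genes were higher and 2.24 to 5.16% lower. A higher minimum leaves fewer genes tested; the cause of the other differences was not tested. The alternatives on tumor marker UMIs and on the Tafa1 and Edil3 cluster were also chosen after seeing the data. Among the cycling ratios and counts past 1.5-fold, 178 other values stayed within the limits used. Medians of the members moved too, from 0.13 to between 0.06 and 0.30 in tumor cells, from -0.26 to between -0.17 and -0.68 in macrophages (A159V IgG over WT IgG) and from 0.22 to between 0.15 and 0.63 for anti-PD1 in A159V macrophages. In WT macrophages the median (-1.30) lay between -1.71 and -0.77 where more than 1 member was tested. CD8 T and regulatory T values rest on few UMIs per cell, and cells of 1 library are not replicates.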
